A study of Mus musculus with 96 samples.

Results

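The proteasome subunit genes were taken as every entry of the deposited liver expression table whose symbol begins with Psma to Psmg followed by a number, without the immunoproteasome subunits Psmb8, Psmb9 and Psmb10, and with a mean of at least 1 FPKM over all 96 libraries. FPKM is the number of fragments assigned to a gene, scaled by the length of its transcript and by the depth of the library. Of 13094 entries 49 had a matching symbol, and 44 were members. The 3 immunoproteasome genes were left out by name, and 2 symbols fell below the level: Psmc3ip, which encodes no proteasome subunit, at 0.184 FPKM, and Psma8 at 0.231 FPKM. The member nearest above the level was Psme2b at 1.11 FPKM. All 44 members were therefore among the 9901 entries tested, and none was listed at 0 in any library.

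The proteasome is the protease that degrades proteins tagged with ubiquitin. Its core particle is a barrel of alpha rings, which form the gate, and beta rings, which hold the catalytic sites. The regulatory particle caps the barrel: a ring of ATPases unfolds the substrate and opens the gate, and non-ATPase subunits bind and remove ubiquitin. Other particles can cap the barrel instead, and dedicated chaperones assemble both parts. The core particle was represented by 14 genes (7 alpha, Psma1 to Psma7, and 7 beta, Psmb1 to Psmb7), and the regulatory particle by 17 genes (6 ATPases, Psmc1 to Psmc6, and 11 non-ATPase subunits). The remaining 13 encode 5 activators, 1 inhibitor and 7 assembly chaperones.

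The study measured liver RNA in C57BL/6J males of 3 to 4 months to ask how loss of Rbbp5, a shared subunit of histone H3 lysine 4 methyltransferase complexes, changes rhythms of liver transcripts. The LKO group held 48 mice with the genotype Rbbp5 flox/flox, Alb-Cre +/-, in which the albumin promoter drives Cre in hepatocytes, so that other cells of the whole liver keep the gene. The Flox group held 48 littermates with the genotype Rbbp5 flox/flox, Alb-Cre -/-. All mice were kept for 2 weeks under 12 h of light and 12 h of darkness with food always present, then spent 24 h in constant darkness, and livers were collected every 2 h for 48 h, with 2 mice per genotype at each of 24 circadian times (CT0 to CT46).

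Library totals lay between 313376 and 498760 FPKM. The absolute depth is unknown, and relative depth averaged 1.07 ± 0.169 in LKO and 0.954 ± 0.118 in Flox (SD, n = 48 each). Rbbp5 itself averaged 2.46 ± 0.774 FPKM in LKO (lowest 1.61, highest 4.23) and 3.27 ± 0.586 FPKM in Flox (lowest 1.55, highest 4.32), and the groups overlapped. The floxed segment is not named in the labels, so these whole-gene levels do not check the deletion itself. The 6 libraries labelled LKO at CT42 to CT46 stood apart. They held 3.79 ± 0.399 FPKM of Rbbp5, against 2.71 ± 0.718 FPKM in the 6 Flox libraries of the same times. Of 10 listed alveolar macrophage and myeloid markers 9 were in the table, none was at 0 in these 6 libraries, and 1 of them, Marco, is also on the Kupffer cell list. Their summed level ran from 5185 to 10495 FPKM there, against 19.7 to 79.3 FPKM in the Flox libraries. The sum of 10 hepatocyte markers averaged 26475 FPKM in the 6 libraries labelled LKO and 46760 FPKM in Flox. That of 6 Kupffer cell markers averaged 99.9 FPKM in the libraries labelled LKO and 103 FPKM in Flox. Of these 6 markers, Marco averaged 15.8 FPKM in the libraries labelled LKO and 2.58 FPKM in Flox. Clec4f, Cd5l, Vsig4, Timd4 and C6 each had a lower mean in the libraries labelled LKO. Counts of members called on the second day, over both days, in the interaction and for 24 h rhythms in LKO are given with and without these 6 libraries. In whole liver, fewer cells of a type and less RNA per cell cannot be told apart.

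Core particle genes were the most abundant members, with a median level of 50.2 FPKM in LKO and 49.6 FPKM in Flox over the 14 genes. Regulatory particle genes had a median of 21.8 FPKM in LKO and 25.4 FPKM in Flox, and the other 13 genes a median of 7.26 FPKM in LKO and 8.33 FPKM in Flox. Psmb5, which encodes the beta subunit with chymotrypsin-like activity, was the most abundant member at 106 FPKM in LKO and 100.01 FPKM in Flox. The members together took 0.299% of all FPKM in LKO and 0.315% in Flox on the first day (CT0 to CT22), and 0.337% in LKO and 0.321% in Flox from CT24 to CT40. At CT42 to CT46 their share was 0.393% in the libraries labelled LKO and 0.307% in Flox. Across the 96 libraries, the median correlation of log2(FPKM + 1) was 0.638 between pairs of core genes, 0.633 between pairs of regulatory genes and 0.428 between a core and a regulatory gene. Over all pairs of tested entries it was 0.165. These correlations describe libraries that share genotype, time, depth and RNA quality. With the genotype and time means taken out, they were 0.674, 0.688, 0.528 and 0.192 in the same order.

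Genotype was tested with limma on log2(FPKM + 1), and a member was called where the p-value adjusted over all 9901 entries (Benjamini-Hochberg) was below 0.05. A difference is LKO minus Flox on that log2 scale, which understates changes of low genes. Over both days, 8 of the 44 members were higher and 17 lower in LKO, and among all tested entries 39.4% were higher and 19.1% lower. The median difference was -0.03 over the members and 0.07 over all entries. In the core particle 2 of 14 genes were higher and 4 lower (median 0.07). In the regulatory particle 1 of 17 was higher and 10 lower (median -0.14). Among the other 13 genes 5 were higher and 3 lower (median 0.03). Without the 6 libraries labelled LKO at CT42 to CT46, 6 members were higher and 22 lower, of which 1 and 13 were regulatory genes, while all entries stood at 31.7% higher and 30% lower.

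On the first day, the median differences of core and regulatory particle genes had opposite signs in the deposited values. In the regulatory particle 14 of 17 genes fell in LKO and 1 rose, with a median difference of -0.36. In the core particle 4 of 14 fell and 6 rose, with a median of 0.07. The other 13 genes split into 5 that fell and 3 that rose (median -0.05). In all, 23 members fell and 10 rose on that day, set against 40.7% of all entries that fell and 22.1% that rose (median -0.09). Of the 12 sampled times of that day, 14 regulatory genes were lower in LKO at 10 or more, and 7 at every one of them: Psmc1, Psmd1, Psmd2, Psmd3, Psmd7, Psmd11 and Psmd13. Among core genes Psma5 alone was lower at all 12 times, and 3 were higher at 10 or more. Times on one side were counted for members only, so these counts are not set against all entries. Under median-ratio scaling 16 members rose and 20 fell on that day (core 8 and 3, regulatory 2 and 12), against 33.1% and 32.5% of all entries. Under quantile normalization 14 rose and 20 fell (core 8 and 3, regulatory 1 and 12), against 31.9% and 35.4%. With the length slope of each library as a covariate, no core gene rose and the medians of both particles were negative. That slope and its values are given with the transcript lengths.

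**Figure D1:**
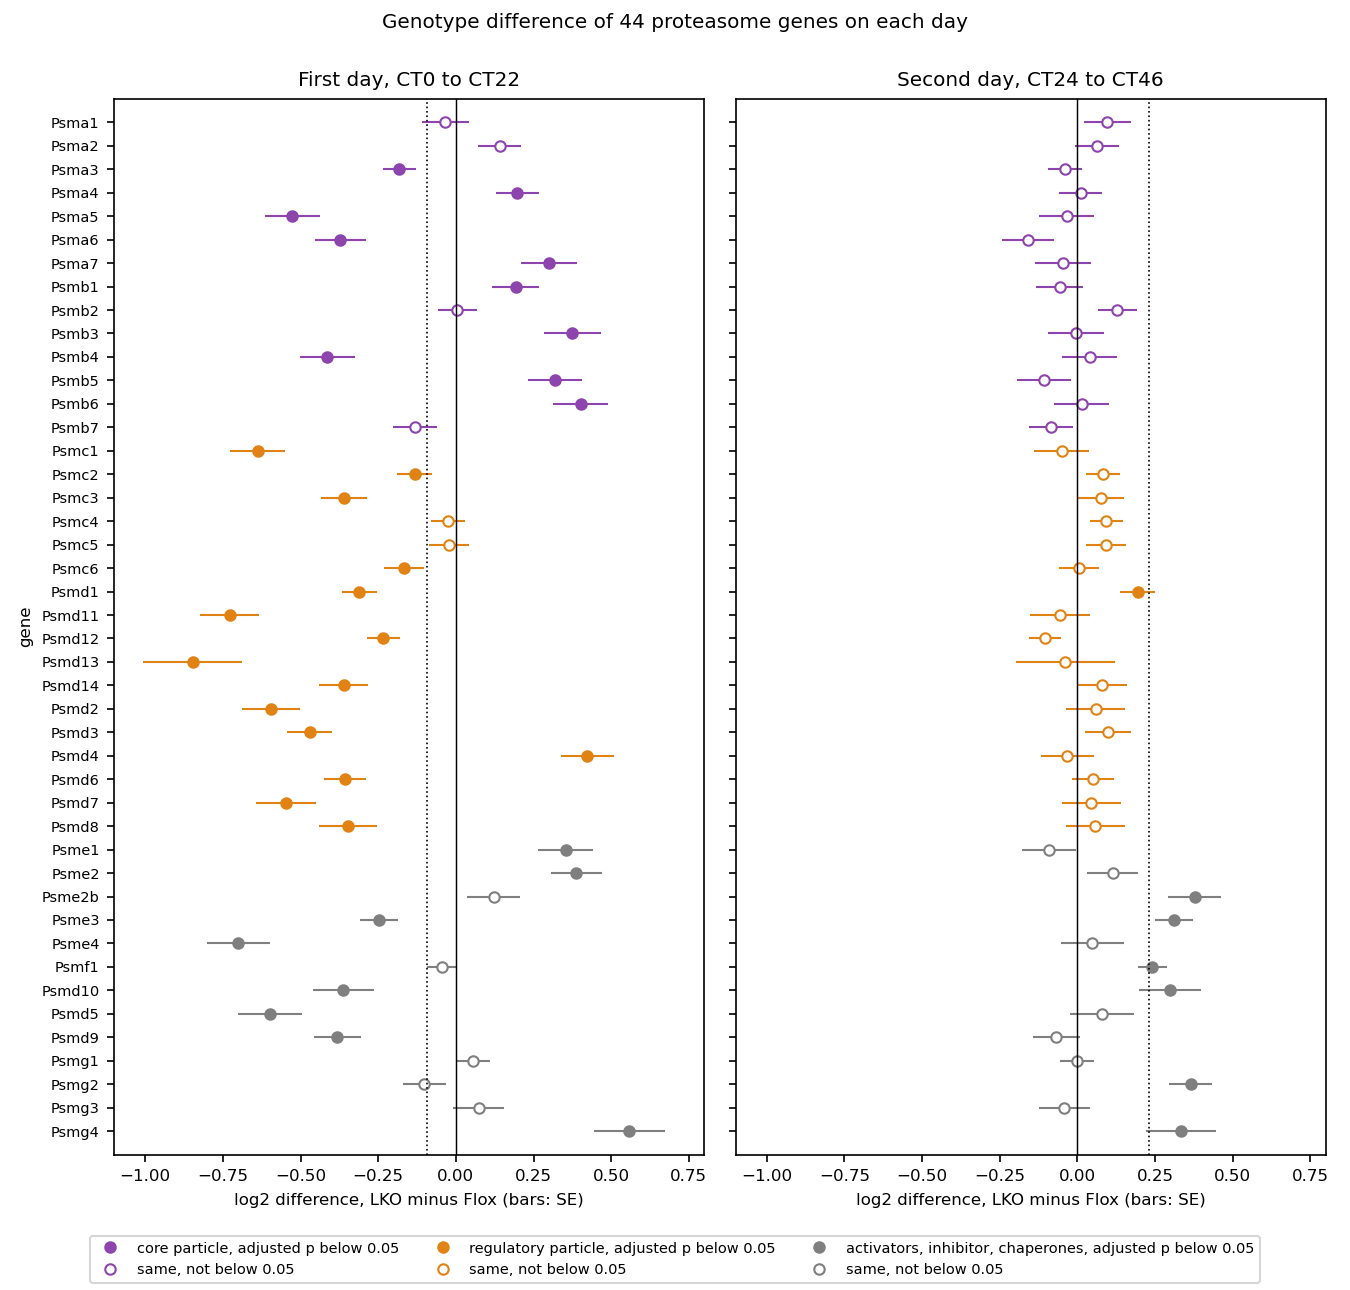
Difference between LKO and Flox (log2(FPKM + 1) units, horizontal axis) of each of the 44 members on the first and the second day, with bars for 1 standard error and 48 libraries behind each day. Filled points have an adjusted p below 0.05, and dotted lines mark the median of all tested entries (-0.09 and 0.23). Most regulatory particle genes lie below 0 on the first day, with a median of -0.36, while core genes lie on both sides of 0, and on the second day most members lie near 0.

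Among non-ATPase subunits of the regulatory particle, 10 of 11 fell on the first day and 1 rose. Psmd11, a subunit of the lid (chr11:80428615-80473248, plus strand, mm10), had a lowest, median and highest value of 6.58, 10.3 and 22.8 FPKM in LKO, against 12.2, 20.4 and 27.7 FPKM in Flox. The LKO values sat mostly below those of Flox, and the ranges overlapped. Its means were 12.2 ± 4.55 FPKM in LKO and 20.2 ± 4.03 FPKM in Flox (SD, n = 24 each), a log2 difference of -0.73 (SE 0.10, adjusted p = 6.24e-09). Psmd13, another lid subunit (chr7:140881968-140898643, plus strand, mm10), ran from 2.65 through a median of 7.31 to 17.2 FPKM in LKO, against 8.83, 14.1 and 18.8 FPKM in Flox. Most LKO livers lay below every Flox liver and the others inside the Flox range. The log2 difference of Psmd13 was -0.85 (SE 0.16, adjusted p = 6.34e-06). Psmd2, the large base subunit that binds ubiquitin receptors and shuttle factors, had 9.89, 17.6 and 27.9 FPKM as lowest, median and highest value in LKO, against 16.1, 26.9 and 33.8 FPKM in Flox (log2 difference -0.60, SE 0.09, adjusted p = 2.57e-07). Its groups overlapped as well. Psmd1, the other large scaffold subunit of the base, spanned 8.40 to 16.7 FPKM in LKO (median 12.6), against 12.9 to 21.9 FPKM in Flox (median 15.9), a log2 difference of -0.31 (SE 0.06, adjusted p = 3.2e-06). Psmd3 differed by -0.47 and Psmd7, a partner of the deubiquitinase in the lid, by -0.55. Psmd14, the deubiquitinase itself, differed by -0.36 (adjusted p = 6.61e-05).

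The exception among these 11 was Psmd4, a ubiquitin receptor of the regulatory particle (chr3:95032694-95042614, minus strand, mm10). It had 29.9, 50.8 and 75.4 FPKM as lowest, median and highest value in LKO on the first day, against 30.03, 36.3 and 56.0 FPKM in Flox. The LKO livers reached higher levels but started at the same low end. The log2 difference was 0.42 (SE 0.09, adjusted p = 2.39e-05), and Psmd4 was higher in LKO at 10 of 12 times. Of the 6 ATPases, 4 fell and none rose. Psmc1 (chr12:100110154-100123405, plus strand, mm10) showed the largest difference of the 6, with 8.55, 20.8 and 33.8 FPKM in LKO, against 27.6, 32.2 and 41.2 FPKM in Flox. Most LKO livers were below the lowest Flox liver, and the others overlapped with Flox. Its log2 difference was -0.64 (SE 0.09, adjusted p = 1.7e-08). Psmc3 differed by -0.36, whereas Psmc4 (-0.02, adjusted p = 0.712) and Psmc5 (-0.02, adjusted p = 0.785) did not pass the test.

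In the core particle, 4 of 7 beta genes rose on the first day and 1 fell, and of 7 alpha genes 2 rose and 3 fell, where 22.1% of all entries rose and 40.7% fell. In the fit that takes the length slope of each library as a covariate, 0 core genes rose and 5 fell, and Psmb5 (-0.07) and Psmb6 (0.01) did not pass the test; the slope is defined with the transcript lengths. Of the 3 catalytic subunits, Psmb5 (chr14:54614119-54618022, minus strand, mm10) had 62.1, 112 and 144 FPKM as lowest, median and highest value in LKO, against 64.4, 82.3 and 119 FPKM in Flox. Psmb6, the caspase-like subunit (chr11:70525367-70527858, plus strand, mm10), had 45.1, 79.7 and 102 FPKM in LKO, against 42.7, 55.6 and 79.9 FPKM in Flox. For both genes the LKO median was near the upper end of Flox and the lowest livers of the groups were alike. The log2 difference was 0.32 for Psmb5 (SE 0.09, adjusted p = 0.0011) and 0.40 for Psmb6 (SE 0.09, adjusted p = 8.95e-05). Psmb7, the trypsin-like subunit, averaged 52.7 ± 12.2 FPKM in LKO and 56.7 ± 7.08 FPKM in Flox and did not pass the test (log2 difference -0.13, adjusted p = 0.097). The largest difference in the core particle was that of the alpha gene Psma5, with 5.70, 11.2 and 15.997 FPKM in LKO, against 12.3, 16.05 and 21.4 FPKM in Flox. Most LKO livers lay below the lowest Flox liver, and the log2 difference was -0.53 (SE 0.09, adjusted p = 8.96e-07). Psmb4 and Psma6 also fell (-0.41 and -0.37), while Psmb3 and Psma7 rose (0.38 and 0.30).

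Promoters of 2 core genes that rose and 2 regulatory genes that fell on the first day are shown so that their composition can be set side by side. They are the bases upstream of the annotated start in RefSeq (GRCm38.p6), cut where they would enter an annotated exon, each read 5′ to 3′ on the strand of its gene. Capitals mark a match to 1 of 3 motifs searched on both strands: CCAAT (the box bound by NF-Y), TGANNNNGC (the core of the antioxidant response element) and CCGGAAG (a core bound by ETS factors). The windows were chr14:54618023-54618245 (minus strand) for Psmb5, chr11:70525107-70525356 (plus strand) for Psmb6, chr12:100109952-100110153 (plus strand) for Psmc1 and chr11:80428365-80428614 (plus strand) for Psmd11.
Psmb5: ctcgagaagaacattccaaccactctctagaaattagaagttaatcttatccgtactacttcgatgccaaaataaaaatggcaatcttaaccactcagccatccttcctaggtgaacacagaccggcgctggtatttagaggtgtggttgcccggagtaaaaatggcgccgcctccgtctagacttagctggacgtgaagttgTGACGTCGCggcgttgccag
Psmb6: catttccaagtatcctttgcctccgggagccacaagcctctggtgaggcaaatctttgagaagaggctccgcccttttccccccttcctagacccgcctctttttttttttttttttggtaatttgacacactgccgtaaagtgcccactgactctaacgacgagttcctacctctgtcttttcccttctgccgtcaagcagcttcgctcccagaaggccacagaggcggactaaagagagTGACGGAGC
Psmc1: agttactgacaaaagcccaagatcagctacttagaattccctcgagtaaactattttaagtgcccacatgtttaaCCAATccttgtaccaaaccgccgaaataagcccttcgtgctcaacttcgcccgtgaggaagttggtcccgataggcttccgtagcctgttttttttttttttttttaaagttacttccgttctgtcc
Psmd11: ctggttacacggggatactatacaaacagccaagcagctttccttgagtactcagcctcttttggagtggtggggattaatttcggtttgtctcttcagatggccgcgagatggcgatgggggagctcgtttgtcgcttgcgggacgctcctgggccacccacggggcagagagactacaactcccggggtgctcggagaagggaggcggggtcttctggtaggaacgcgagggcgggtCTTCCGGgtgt
Within the printed bases, Psmb5 and Psmb6 each hold 1 match to the antioxidant response core close to the start. Psmc1 holds 1 CCAAT there, and Psmd11 holds 1 ETS core on the opposite strand. For the counts, a 300-base window (250 bases before and 50 after the start) was found for 37 of the 44 members. In that longer window Psmc1 also held an ETS core, outside its printed bases. The ETS core was present in 9 of 14 regulatory promoters (64.3%) and in 1 of 11 core promoters (9.09%), against 21.4% of the promoters of 7557 tested entries and 9.93% of those of all 27025 genes. The antioxidant response core was present in 8 of 11 core and 6 of 14 regulatory promoters, against 47.9% of tested entries. CCAAT was present in 6 of 11 core and 4 of 14 regulatory promoters, against 42.9% of tested entries. A match is a stretch of letters, and no binding was measured here.

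Among the activators, Psme1 and Psme2, which form the ring known as PA28 alpha-beta, rose on the first day. Psme2 had 14.2, 24.4 and 36.001 FPKM as lowest, median and highest value in LKO, against 12.8, 17.7 and 25.1 FPKM in Flox, a log2 difference of 0.39 (SE 0.08, adjusted p = 4.06e-05). Many LKO livers lay above the highest Flox liver. Psme1 differed by 0.35 (SE 0.09, adjusted p = 0.000378). With the length slope of each library as a covariate, neither Psme1 nor Psme2 was called higher on that day. Psme4, the large activator PA200 (chr11:30771726-30880361, plus strand, mm10), had 2.39, 4.05 and 9.25 FPKM in LKO, against 4.51, 8.30 and 10.5 FPKM in Flox. It was lower in LKO at all 12 times of the first day, with a log2 difference of -0.70 (SE 0.10, adjusted p = 4.35e-08). Psme3, which forms the nuclear activator PA28 gamma, differed by -0.25 (SE 0.06, adjusted p = 0.000375). Psme2b is nearly identical in sequence to Psme2, so its reads may be shared and its values are uncertain. Psmf1, the inhibitor PI31, did not pass the test on that day (-0.05, adjusted p = 0.395).

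Of the 7 assembly chaperones, 3 fell and 1 rose on the first day, near the shares of all entries (40.7% and 22.1%). The one that rose was Psmg4, a chaperone of the alpha ring (chr13:34162964-34178173, plus strand, mm10), with 4.96, 14.7 and 20.6 FPKM in LKO, against 5.53, 7.999 and 13.2 FPKM in Flox. Its LKO livers were spread widely, and most of them lay above the highest Flox liver. The log2 difference was 0.56 (SE 0.11, adjusted p = 2.21e-05), and it was 0.09 (adjusted p = 0.369) with the length slope as a covariate. Those that fell assemble the base of the regulatory particle: Psmd5 (-0.60, SE 0.10, adjusted p = 1.29e-06), Psmd9 (-0.38, adjusted p = 1.86e-05) and Psmd10 (-0.36, adjusted p = 0.00122). Psmd5 averaged 5.79 ± 2.09 FPKM in LKO and 8.92 ± 1.38 FPKM in Flox (SD, n = 24 each). The core chaperones Psmg1, Psmg2 and Psmg3 differed by 0.06, -0.10 and 0.07 and did not pass the test.

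The distance between both particles was followed in each library as the mean log2(FPKM + 1) of the 14 core genes minus that of the 17 regulatory genes. On the first day it had a lowest, median and highest value of 0.566, 1.21 and 1.41 in LKO, against 0.524, 0.698 and 1.08 in Flox, and the LKO mean was above the Flox mean at 12 of 12 times. Of the 24 LKO libraries 16 lay above the highest Flox library and 8 inside the Flox range. Those 8 included 4 below 0.75 (0.566, 0.580, 0.630 and 0.742). The core mean was 5.38 ± 0.288 in LKO and 5.36 ± 0.175 in Flox, and the regulatory mean was 4.26 ± 0.273 in LKO and 4.60 ± 0.108 in Flox (SD, n = 24 each). On the second day the distance was 0.940 ± 0.133 in LKO and 0.992 ± 0.223 in Flox, with 0.936 in LKO and 0.935 in Flox from CT24 to CT40, and the LKO mean was above at 3 of 12 times. No test was made of these averages, since the members were chosen with results known.

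**Figure D2:**
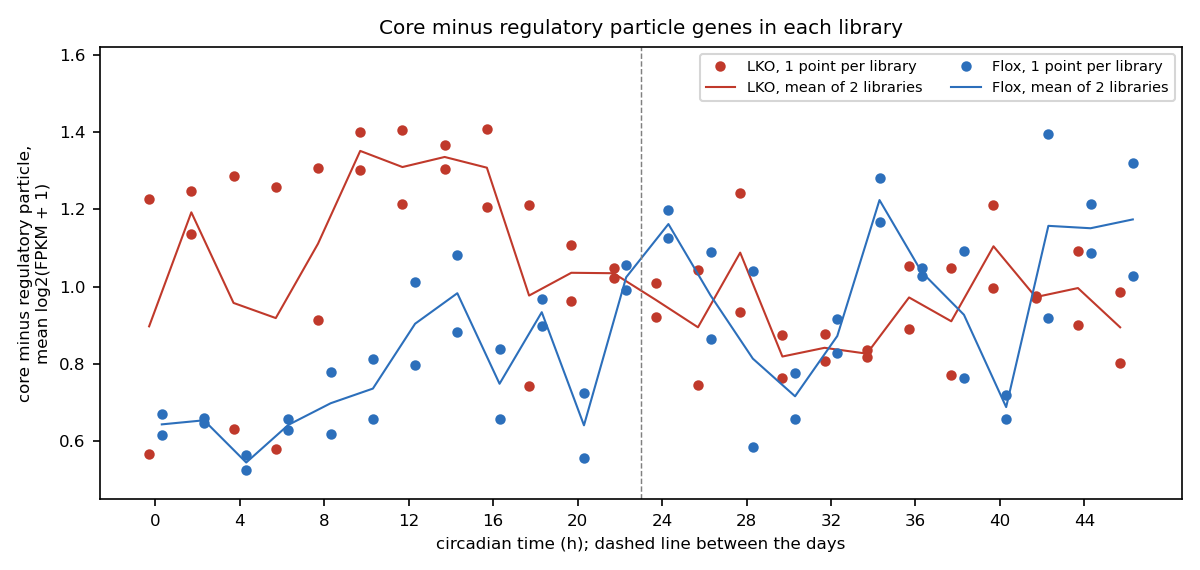
Mean log2(FPKM + 1) of the 14 core genes minus that of the 17 regulatory genes (vertical axis) in each of the 96 libraries by circadian time (horizontal axis, h), with lines through the genotype means. On the first day the LKO mean is above the Flox mean at 12 of 12 times, and on the second day at 3 of 12.

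Transcript length differed between the particles and moved with the result. The longest annotated protein-coding transcript had a median of 1162.5 nucleotides over the core genes and 1819 over the regulatory genes, with Psmg4 the shortest member (555) and Psme4 the longest (6491). For each library a length slope was computed over 9266 entries that are not members, as the change in deviation from the entry's mean (log2 units) per doubling of length. It averaged -0.0479 ± 0.117 in LKO and 0.116 ± 0.112 in Flox on the first day, and -0.0182 ± 0.0757 in LKO and -0.0496 ± 0.138 in Flox on the second (SD, n = 24 each). Across the 96 libraries the distance between the particles had a Pearson correlation of -0.903 and a Spearman correlation of -0.919 with this slope, as a description of values that share a library and its RNA. Within groups the Pearson correlation was -0.917 in LKO and -0.962 in Flox on the first day, and -0.855 in LKO and -0.894 in Flox on the second. The 4 LKO libraries with the smallest distance on the first day had slopes of 0.189, 0.256, 0.158 and 0.108. Across genes, the Spearman correlation of the first-day difference with length was -0.60 over the 44 members and -0.37 over 9310 entries.

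With the length slope of each library as a covariate, no member was higher on the first day and 22 were lower, of which 13 were regulatory and 5 core genes, against 16.8% of all entries higher and 19.6% lower. The median difference of the core genes was then -0.10 and that of the regulatory genes -0.31. Psmb5 changed sign to -0.07 (adjusted p = 0.305), Psmb6 stood at 0.01 (adjusted p = 0.93), Psmd4 at 0.12 (adjusted p = 0.201) and Psmg4 lost its call. The lower level of Psmd11 (-0.41, adjusted p = 0.000279), Psmc1 (-0.51, adjusted p = 0.000109), Psmd13 (-0.66, adjusted p = 0.0041), Psma5 (-0.49, adjusted p = 0.000328) and Psme4 (-0.35, adjusted p = 0.0018) passed the test in that fit. Length slope and genotype moved together on the first day, and the part of the slope in these differences was not tested further. The ribosomal RNA precursor Rn45s exceeded 6000 FPKM in 7 LKO libraries, 5 of them from the first day, and in 3 Flox libraries, none of them from the first day. Without these 10 libraries 11 members were higher and 21 lower on the first day, against 24% and 33.9% of all entries.

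**Figure D3:**
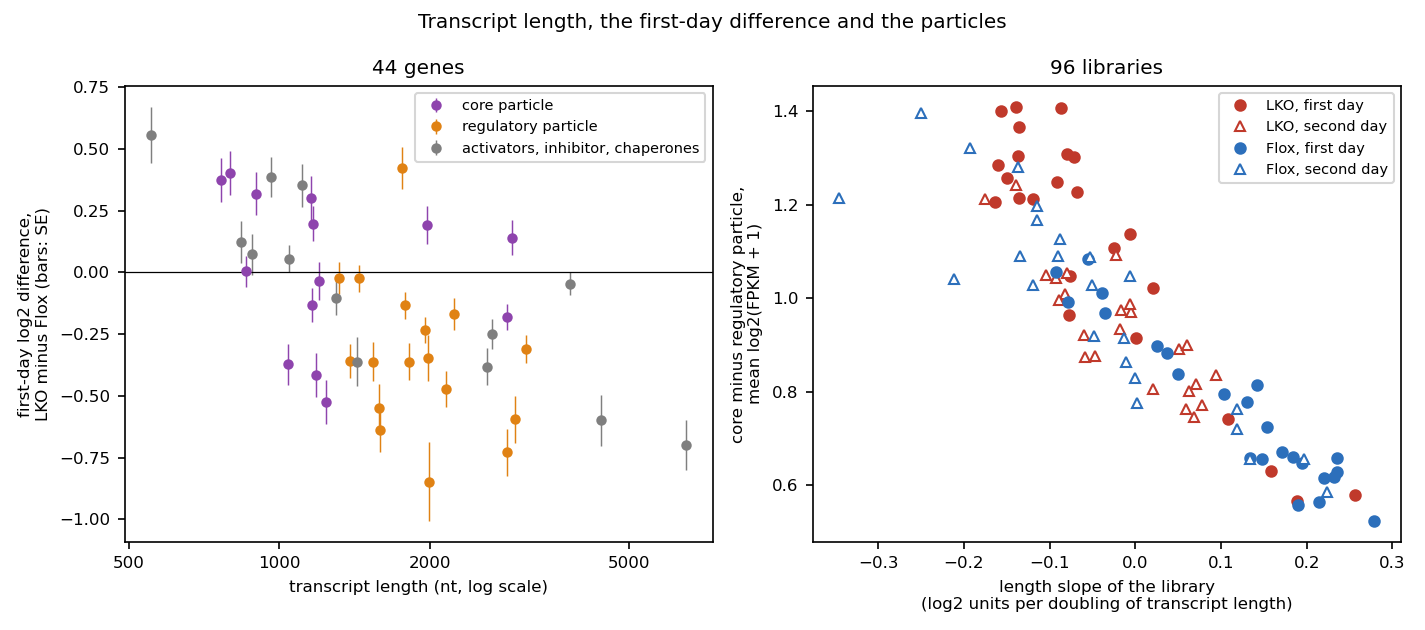
Left, first-day difference between LKO and Flox (log2 units, vertical axis) of each member, with bars for 1 standard error, against its transcript length (nucleotides, log axis). Right, core minus regulatory mean (log2 units) against length slope (log2 units per doubling of length) for the 96 libraries. Longer members lie lower, with a Spearman correlation of -0.60, and libraries with a higher slope have a smaller distance between the particles, with a Pearson correlation of -0.903.

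On the second day (CT24 to CT46) 7 members were higher in LKO and none lower, against 57.5% of all entries higher and 9.14% lower. By unadjusted p below 0.05 limma counted 8 members in all. The median difference was 0.05 over the members and 0.23 over all entries. No core gene was called, and 1 of the 14 had an unadjusted p below 0.05. Psmd1 was the single regulatory gene called, with 13.0, 16.1 and 18.9 FPKM in LKO, against 6.86, 14.2 and 19.3 FPKM in Flox (log2 difference 0.19, SE 0.06, adjusted p = 0.00205). The lowest Flox livers lay below all LKO livers and the upper ends were alike. This call was lost (0.06, adjusted p = 0.466) without the 6 libraries labelled LKO at CT42 to CT46, and no regulatory gene was then higher. Psmd11, which fell on the first day, averaged 15.6 ± 3.45 FPKM in LKO and 16.4 ± 4.23 FPKM in Flox on the second (SD, n = 24 each; log2 difference -0.06, adjusted p = 0.616). Psmc1 averaged 30.7 ± 4.61 FPKM in LKO and 32.3 ± 7.11 FPKM in Flox, and Psmb6 averaged 74.8 ± 12.7 FPKM in LKO and 74.9 ± 16.02 FPKM in Flox.

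The direction of the second-day counts changed with the scaling. Median-ratio scaling gave 4 members higher and 16 lower, against 41.8% and 17.7% of all entries, and quantile normalization gave 1 higher and 16 lower, against 21.6% and 31.7%. Those scalings moved the median of all entries on that day to 0.11 and -0.05. Relative to the median of all entries, the members' median was -0.18 in the deposited values, -0.21 under median-ratio scaling and -0.06 under quantile normalization. Without the 6 libraries labelled LKO at CT42 to CT46, 3 members were higher (Psmf1, Psmg2 and Psmg4) and 2 lower (Psma6 and Psmd12), against 29.9% of all entries higher and 5.3% lower. The calls of Psmd1, Psme2b, Psme3 and Psmd10 were lost. Psmf1 ran from 5.29 to 7.61 FPKM in LKO (median 6.63), against 3.34 to 6.94 FPKM in Flox (median 5.53). It was higher in LKO at 12 of 12 times of the second day, with a log2 difference of 0.24 (SE 0.05, adjusted p = 8.75e-06). Psmg2, a core assembly chaperone, had 6.39, 8.79 and 11.5 FPKM in LKO, against 3.45, 6.77 and 9.03 FPKM in Flox (adjusted p = 6.67e-06). Both genes were higher in most LKO livers, with overlapping ranges. Psmg4 averaged 15.6 ± 4.23 FPKM in LKO and 12.1 ± 3.26 FPKM in Flox (adjusted p = 0.00795).

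At CT42 to CT46, where the myeloid markers were high in the libraries labelled LKO, all 6 of these libraries lay above all 6 Flox libraries for 6 of the 44 members (Psmc6, Psmd1, Psmd2, Psmd10, Psme2b and Psme3) and below them for none, against 39.8% and 2.5% of all entries. Ordered by the log2 difference at these times, the members were led by Psme2b (1.24), Psmd10 (0.91) and Psme3 (0.87), followed by Psmd1 (0.60), Psmd14 (0.59) and Psmd2 (0.59). Psme2b averaged 3.70 ± 0.848 FPKM in the libraries labelled LKO and 0.973 ± 0.217 FPKM in Flox there, while from CT24 to CT40 its means were 0.983 FPKM in LKO and 0.855 FPKM in Flox. Psmd10, the chaperone also known as gankyrin, averaged 7.45 ± 1.33 FPKM in the 6 libraries labelled LKO and 3.59 ± 1.28 FPKM in Flox at CT42 to CT46. Psme3 ran from 19.9 to 26.5 FPKM in those libraries, against 8.90 to 16.1 FPKM in Flox, and these libraries did not overlap. From CT24 to CT40 Psme3 averaged 17.9 ± 2.32 FPKM in LKO and 16.3 ± 1.74 FPKM in Flox (SD, n = 18 each). The part of the myeloid signal in these levels was not tested.

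Whether the genotype difference itself changed between the days was tested as an interaction. It was positive for 21 members and negative for 8, against 59.5% and 9.65% of all entries (median 0.21 over the members, 0.34 over all entries). The regulatory particle held 12 positive and 1 negative genes (median 0.44), the core particle 2 positive and 5 negative genes (median -0.01), and the others 7 and 2 (median 0.29). The smallest adjusted p values were those of Psme3 (0.56, SE 0.09, adjusted p = 2.25e-07), Psmd1 (0.50, SE 0.08, adjusted p = 2.99e-07), Psmd3 (0.57, SE 0.10, adjusted p = 3.44e-06) and Psme4 (0.75, SE 0.14, adjusted p = 7.9e-06). Without the 6 libraries labelled LKO at CT42 to CT46 the counts were 19 and 7, with 10 and 1 in the regulatory particle, against 47.0% and 8.78% of all entries. With the length slope as a covariate they were 24 and 0, against 40.9% and 3.03% of all entries. Median-ratio scaling gave 16 positive and 18 negative members, against 41.2% and 22.4% of all entries, with 10 and 4 in the regulatory and 1 and 9 in the core particle. Quantile normalization gave 13 and 16, against 28.7% and 31.4%.

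Differences over both days, ordered by size, were led upward by Psmg4 and downward by Psmd13. Psmg4 had 4.96, 14.7 and 23.9 FPKM in LKO, against 5.53, 10.1 and 21.01 FPKM in Flox (log2 difference 0.45, SE 0.08, adjusted p = 3.21e-06). It was followed by Psme2 (0.25, adjusted p = 0.000245), Psme2b (0.25, adjusted p = 0.000437) and Psmb6 (0.21, adjusted p = 0.00587). The difference of Psme2b was 0.11 (adjusted p = 0.0367) without the 6 libraries labelled LKO at CT42 to CT46. Psmb6 did not pass the test without the libraries lettered A (adjusted p = 0.0532) or B (0.2), or with Rn45s (0.0565) or the length slope (0.16) as a covariate. Psmd13 had 2.65, 12.2 and 20.9 FPKM in LKO, against 3.46, 14.6 and 29.6 FPKM in Flox (log2 difference -0.44, SE 0.12, adjusted p = 0.00129). Psmd11 (-0.39, SE 0.08, adjusted p = 1.61e-05), Psmc1 (-0.34, SE 0.07, adjusted p = 2.76e-05), Psme4 (-0.33, SE 0.08, adjusted p = 0.000599), Psma5 (-0.28, SE 0.07, adjusted p = 0.000359) and Psmd2 (-0.27, SE 0.08, adjusted p = 0.00197) followed. All of these groups overlapped over both days.

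**Figure D4:**
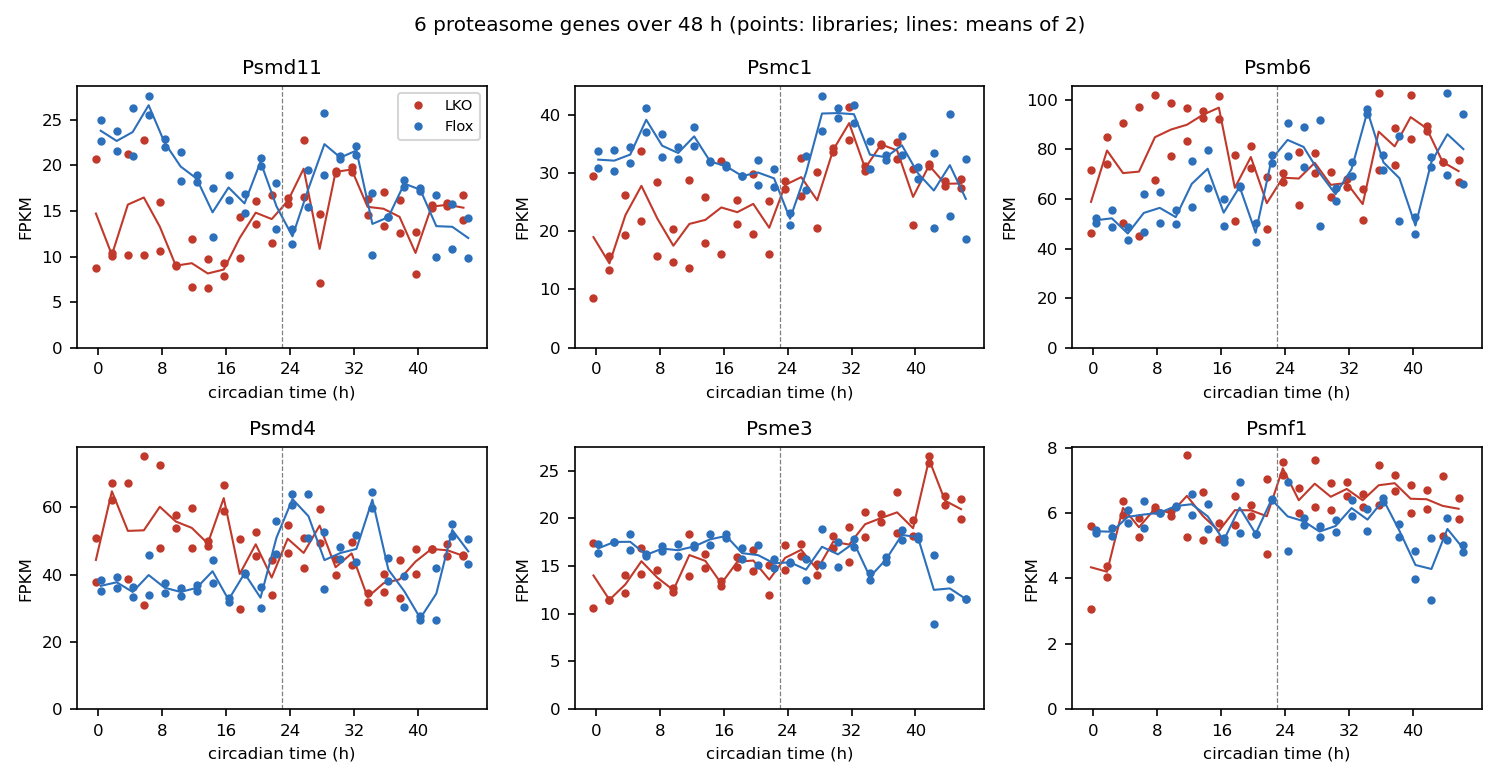
FPKM (vertical axis) of Psmd11, Psmc1, Psmb6, Psmd4, Psme3 and Psmf1 by circadian time (horizontal axis, h), with 1 point per library and lines through the genotype means. Psmd11 and Psmc1 lie lower in LKO on the first day, Psmb6 and Psmd4 higher, Psmf1 lies higher in LKO at 12 of 12 times of the second day, and Psme3 reaches 19.9 to 26.5 FPKM in the libraries labelled LKO at CT42 to CT46.

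The study asked about 12 h rhythms, which were tested together with a 24 h component in each genotype. No member had a 12 h rhythm in LKO or in Flox by limma, against 9.42% of all entries in LKO and 1.78% in Flox. At unadjusted p below 0.05 there were 4 members in LKO and 6 in Flox, and none was called under any alternative tried. In LKO the smallest adjusted p values were those of Psmd14 (amplitude 0.19, adjusted p = 0.0936), Psmd10 (amplitude 0.23, adjusted p = 0.117), the ATPase gene Psmc6 (0.12, adjusted p = 0.151) and Psmd11 (0.19, adjusted p = 0.18). In Flox they were those of Psma4 (amplitude 0.16, adjusted p = 0.155), Psmd4 (0.18, adjusted p = 0.209), Psme1 (0.18, adjusted p = 0.257) and Psma2 (0.14, adjusted p = 0.263). The median 12 h amplitude of the members was 0.0816 in LKO and 0.0833 in Flox, where that of all entries was 0.111 in LKO and 0.102 in Flox. The LKO median of all entries was 0.0802 once the 6 libraries labelled LKO at CT42 to CT46 were left out. The 9.42% of all entries in LKO comes from the fit that holds these libraries. The difference in 12 h rhythm between LKO and Flox passed the test for 0 members and for 0.0% of all entries, and 7 members had an unadjusted p below 0.05, with the smallest adjusted p values in Psmd4 (0.135), Psmc6 (0.14), Psmb6 (0.151) and Psme3 (0.155).

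A 24 h rhythm was called for 12 members in LKO and 8 in Flox, against 49.5% of all entries in LKO and 27.3% in Flox. Called amplitudes ran from 0.106 to 0.318 in LKO and from 0.141 to 0.297 in Flox. In LKO 10 of the 12 peaks fell between CT12 and CT20, and in Flox 8 of 8 fell between CT5 and CT12. Peaks were counted for members only, so these counts are not set against all entries. Only 3 members were called in both groups, so the peak counts do not compare the same genes. In LKO 11 members were called without the 6 libraries labelled LKO at CT42 to CT46, against 26.7% of all entries. With all libraries, the calls in LKO held 5 core, 3 regulatory and 4 other genes. Those in Flox held 1 core, 6 regulatory and 1 other gene. In the fit with the length slope 16 members were called in Flox, 9 core and 6 regulatory, against 23.8% of all entries. Psmd9, Psmd11 and Psmd12 were called in both. Psmd9 peaked at CT12.2 in LKO (amplitude 0.26, adjusted p = 0.000688) and at CT11.2 in Flox (amplitude 0.19, adjusted p = 0.0343). Psmb7 peaked at CT13.0 in LKO (amplitude 0.20, adjusted p = 0.00313) and had an amplitude of 0.12 in Flox (adjusted p = 0.13). Psmd1 had an amplitude of 0.07 in LKO (adjusted p = 0.423) and peaked at CT6.39 in Flox (amplitude 0.24, adjusted p = 0.000131). Psmd3 had an amplitude of 0.09 in LKO (adjusted p = 0.367) and peaked at CT7.38 in Flox (amplitude 0.27, adjusted p = 0.000852). The lid gene Psmd12 peaked at CT9.32 in LKO (amplitude 0.11, adjusted p = 0.0461) and at CT8.76 in Flox (amplitude 0.17, adjusted p = 0.00127). Psme2b had the largest amplitude in LKO (0.32, peak CT18.9, adjusted p = 0.000211), and it fell to 0.0763 (adjusted p = 0.355) without the 6 libraries labelled LKO at CT42 to CT46. The difference in 24 h rhythm between LKO and Flox was called for 0 members, against 19.9% of all entries. That share is from the fit that holds the 6 libraries labelled LKO at CT42 to CT46, and it is not given without them. Of the members 5 had an unadjusted p below 0.05, led by Psmd1 (adjusted p = 0.0502), Psmc6 (0.0545), Psme3 (0.0578) and Psme2b (0.0704). Some alternative fits called members for this difference, among them those with the length slope or Rn45s as a covariate. Their counts are given with the dependence on processing.

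Related genes of the pathway outside the 44 were read in the same fits, where 22.1% of all entries rose and 40.7% fell on the first day, and 57.5% rose and 9.14% fell on the second. The second-day shares were 29.9% and 5.3% without the 6 libraries labelled LKO at CT42 to CT46. The 3 immunoproteasome subunits, which replace the catalytic beta subunits in immune cells and under interferon, all rose on the first day and none was called on the second. None of the 3 was called on the first day with the length slope as a covariate. Psmb9 averaged 10.5 ± 4.08 FPKM in LKO and 6.90 ± 1.85 FPKM in Flox on the first day (SD, n = 24 each; log2 difference 0.50, adjusted p = 0.000117). Of 9 accessory subunits and assembly factors, 3 rose and 5 fell on the first day, and 5 rose and none fell on the second, a share close to that of all entries. The second-day count was 0 without the 6 libraries, and with the length slope 1 rose and 2 fell on the first day. Shfm1, the older name of the small lid subunit Sem1, averaged 116 ± 32.3 FPKM in LKO and 85.1 ± 25.3 FPKM in Flox over both days (SD, n = 48 each; log2 difference 0.45, adjusted p = 3.42e-07, and 0.41 without the 6 libraries).

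Of 8 genes of transcriptional control, none rose and 5 fell on the first day, and 4 rose and none fell on the second, which is near the share of all entries that rose. Leaving out the 6 libraries labelled LKO at CT42 to CT46, 2 rose on the second day, and with the length slope as a covariate 1 rose and 2 fell on the first. Nfe2l1, which encodes the factor that raises proteasome genes when the proteasome is inhibited, averaged 17.5 ± 4.74 FPKM in LKO and 24.5 ± 3.07 FPKM in Flox on the first day (SD, n = 24 each; log2 difference -0.49, adjusted p = 2.73e-05). Ddi2, the protease that releases this factor, averaged 5.94 ± 4.15 FPKM in LKO and 11.7 ± 7.04 FPKM in Flox over both days (SD, n = 48 each; log2 difference -0.83, adjusted p = 1.63e-05, and -1.02 without the 6 libraries). Ngly1, which removes its glycans, differed by -0.33 over both days (adjusted p = 0.000622), and by -0.45 without the 6 libraries. On the second day Nfe2l1 was on the other side, at 23.6 ± 5.65 FPKM in LKO and 18.7 ± 5.04 FPKM in Flox. Second-day means were 6.88 FPKM in LKO and 8.28 FPKM in Flox for Ddi2, and 5.63 and 5.61 FPKM for Ngly1. These second-day means hold the 6 libraries. Nfe2l2, the factor of the antioxidant response, averaged 25.5 ± 10.7 FPKM in LKO and 16.3 ± 4.75 FPKM in Flox (SD, n = 48 each; log2 difference 0.57, adjusted p = 7.12e-07). Its difference was 0.19 on the first day (adjusted p = 0.173) and 0.96 on the second (adjusted p = 4.95e-10). It was 0.36 over both days (adjusted p = 8.03e-05) and 0.60 on the second (adjusted p = 2.81e-05) without the 6 libraries.

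Of 11 genes of the VCP segregase, which extracts ubiquitinated proteins, and of the shuttle factors that bring them to the proteasome, none rose and 9 fell on the first day, and 6 rose and none fell on the second, a share close to that of all entries. When the 6 libraries labelled LKO at CT42 to CT46 were left out, 1 rose on the second day, and with the length slope as a covariate 5 fell and none rose on the first. Vcp itself averaged 38.7 ± 12.6 FPKM in LKO and 60.7 ± 8.25 FPKM in Flox on the first day (SD, n = 24 each; log2 difference -0.69, adjusted p = 5.25e-08). Its cofactor Nploc4 differed by -0.71 (adjusted p = 6.06e-08) on that day. Of 5 tested genes of ubiquitin and its activation, 2 rose and 1 fell on the first day. With the length slope as a covariate 0 of them rose and 1 fell on that day. The values that follow are from the fit without this covariate. Rps27a, which encodes ubiquitin fused to a ribosomal protein, rose by 0.50 (adjusted p = 1.12e-05), and the one that fell was the activating enzyme Uba1 (-0.59, adjusted p = 7.02e-08).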

How the data were processed

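Liver RNA was sequenced from 48 LKO and 48 Flox mice with a stranded mRNA kit, per the labels' protocols. The authors deposited 1 table of FPKM values. Its header names no unit, which was inferred from the values and from Cufflinks in the submitters' processing notes. Those notes also name FastQC, Trimmomatic, HISAT2 and the build mm10, without versions. Absolute depth is unknown, so no counting intervals are given, and relative depth was taken from the spacing of low values.

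The 9901 entries averaging 1 FPKM or more were tested as log2(FPKM + 1) with limma 3.58.1 (trend and robust) in R 4.3.3, with Benjamini-Hochberg adjustment over all 9901 and a threshold of 0.05. Genotype was fitted with the 24 times as a factor, per day and as an interaction, and rhythms as 24 h plus 12 h harmonics per genotype. Times and replicates come from the labels. The p-values measure the spread of mice around the fitted terms, which also holds departures of single times from those terms. The fits were tested on simulated data first. No 2 of the 4560 library pairs were identical.

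Genes are named by rule: the 4 largest positive and 6 largest negative called genotype differences, the 3 catalytic subunits, the 4 smallest p of each 12 h rhythm, of the interaction and of each rhythm difference, the 3 smallest p of each 24 h rhythm, and up to 3 genes per pathway list, of which some are not reported here. Other genes named, Nfe2l1 among them, were chosen after their values were seen. Members, classes and lists were chosen with earlier results of these data known. Alternatives covered scaling, pseudocount, filter, replicate letters, a replicate block, a Rn45s covariate and leaving out CT42 to CT46. A length-slope covariate and leaving out libraries above 6000 FPKM of Rn45s were added after seeing the data. Positions and lengths are from GENCODE M21 and promoters from RefSeq.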

Additional observations from a re-analysis of the deposited data

Results flagged for a closer look

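The genotype difference (LKO minus Flox, log2 scale) differed between the second and the first day for 29 members by the interaction test in limma, with an adjusted p below 0.05. Values are the second-day minus the first-day difference, so a positive value means that LKO stood higher relative to Flox on the second day. In the regulatory particle it was 0.81 for Psmd13, 0.67 for Psmd11, 0.65 for Psmd2, 0.59 for Psmc1 and Psmd7, 0.57 for Psmd3, 0.50 for Psmd1, 0.44 for Psmc3 and Psmd14, 0.41 for Psmd6 and Psmd8, 0.22 for Psmc2 and -0.46 for Psmd4. In the core particle it was 0.49 for Psma5, 0.45 for Psmb4, -0.25 for Psmb1, -0.35 for Psma7, -0.38 for Psmb3, -0.39 for Psmb6 and -0.43 for Psmb5. Among activators and the inhibitor it was 0.75 for Psme4, 0.56 for Psme3, 0.29 for Psmf1, -0.27 for Psme2 and -0.44 for Psme1. Among assembly chaperones it was 0.68 for Psmd5, 0.66 for Psmd10, 0.47 for Psmg2 and 0.31 for Psmd9. Of all tested entries 59.5% had a positive and 9.65% a negative interaction, so positive values were common outside the proteasome as well, and 8 of the 44 members were negative. Taking the length slope of each library as a covariate, 24 members were positive and 0 negative, and Psmb5 stood at 0.03 (adjusted p = 0.709). When the 6 libraries labelled LKO at CT42 to CT46 were left out, 19 were positive and 7 negative, and Psmb1 lost its call (adjusted p = 0.0672).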

How the results depend on the processing

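Absolute depth is unknown, and letters A (44 libraries), B (48) and C (4) mark replicates whose meaning is not given. Same-lettered LKO and Flox libraries deviated together (r above 0.1) at 7 of the 20 times with 2 shared letters and oppositely (r below -0.1) at 7; over all 24 times r ran from -0.402 to 0.338, so the letters were not taken to pair mice. With the letter as a replicate block, 6 members were higher and 15 lower over both days, 10 and 21 on the first day, 7 and 0 on the second, 21 and 8 in the interaction, and 10 (LKO) and 7 (Flox) had a 24 h rhythm. Median-ratio scaling gave 16 higher on the first day (2 regulatory), 4 higher and 16 lower on the second and 18 negative interactions; quantile normalization gave 1 higher and 16 lower on the second day and 13 positive and 16 negative interactions. Without a letter, counts ran over both days from 3 to 4 higher and 3 to 13 lower; on the first day from 4 to 8 higher (core 1 to 4, regulatory 0 to 1) and 15 to 22 lower (core 1 to 4); on the second from 3 to 6 higher; in the interaction from 10 to 21 positive and 1 to 2 negative; and for 24 h rhythms from 4 to 5 in LKO and 1 to 2 in Flox. With Rn45s as a covariate 8 members were lower over both days, 5 interactions were negative and 3 differences in 24 h rhythm were called. With the length slope as a covariate 0 members were higher on the first day (core 0, regulatory 0), 0 interactions were negative, and 16 Flox rhythms and 7 rhythm differences were called; the first-day difference of Psmb5 reversed to -0.07 (-0.0665). Without the 6 libraries labelled LKO at CT42 to CT46, and without all 12, 3 members were higher and 2 lower on the second day, and without all 12 a Flox 24 h rhythm was called for 4; without libraries of high Rn45s 1 was lower on that day and 1 rhythm difference was called. A linear trend gave 13 Flox rhythms. Rhythm differences were called for 3 members with a pseudocount of 5, 1 without the filter and 1 without trend and robust fitting. Of the single-gene values 317 kept their side of the threshold, 22 lost the call and 1 reversed. Direction was compared for log2 differences only, and for rhythm amplitudes only the side of the threshold was compared. Where no share of all entries is given above for a setting, its counts are not set against the whole table. The causes were not tested.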
